A study of Mus musculus with 24 samples.

Results

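Lysosome genes were followed as a set of 40 genes in distal small intestinal tissue from C57BL/6N mice, which are an inbred strain. The 40 were taken by gene symbol from the 55536 genes of the count table, and each symbol matched 1 gene. RNA was measured in 24 animals, 1 library each, in 4 groups of 3 males and 3 females. CD animals received a control diet with 10% of its energy from fat and no metformin, and CDmetf animals received the same diet with metformin, taken by mouth against diabetes, at 50 mg/kg body mass per day. HFD animals received a high-fat diet with 60% of its energy from fat and no metformin, and HFDmetf animals received that diet with the same dose of metformin. The diets were given from a young age for 20 weeks, and metformin was then added to the drinking water for 10 weeks. All animals were wild type, and the high-fat diet served as a diet-induced model of obesity and insulin resistance. Libraries are named by group, sex and replicate number, so that CD M3 is the third male of the CD group. The comparisons asked how diet and metformin change gene expression in this tissue.

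Lysosomes are acidic organelles that break down proteins, glycans and lipids delivered by endocytosis and autophagy. Their lumen is acidified by a proton pump, the V-ATPase, their limiting membrane is lined by heavily glycosylated proteins such as LAMP1 and LAMP2, and most of their hydrolases arrive through the mannose 6-phosphate route. The transcription factor TFEB drives many of these genes and stays in the cytosol while mTORC1 on the lysosomal surface is active. In the intestine, enterocytes, Paneth cells and macrophages all depend on lysosomes, so RNA from a whole tissue piece mixes their contributions.

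All 40 genes passed the filter on low counts, and the markers of the set, Lamp1, Ctsd and Hexa, had reads in every library. Levels between genes are given as CPM (reads scaled to library size) per kilobase of exon, or RPKM, since longer genes collect more reads. Psap, the precursor of the saposins that help degrade sphingolipids, had the highest median over the 24 libraries at 175 RPKM. It was followed by Lamp1, an abundant membrane protein, at 160.2 RPKM and by the cysteine proteases Ctss at 93.3, Ctsz at 74.5 and Ctsb at 69.6 RPKM. The markers Hexa, a subunit of beta-hexosaminidase, and Ctsd, an aspartic protease, had medians of 41.7 and 41.2 RPKM. At the other end, Ctse, an intracellular aspartic protease, had a median of 0.45 RPKM, and HFDmetf F2 held 0 reads of it, where 3 reads would have been 1.71 CPM. The regulator Tfeb had a median of 3.6 RPKM. The 9 genes below 4 RPKM were Atp6v1h, Tfeb, Smpd1, Manba, Idua, Sgsh, Gla, Arsb and Ctse.

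Since TFEB binds E-box letters near the start of many lysosome genes, the promoters of the set were searched for CACGTG, which reads the same on both strands, in the 250 bases before and 50 bases after each start site (RefSeq, GRCm38.p6). Promoters were found for 33 of the 40 genes, 4 of them with several start sites. The letters were present in 13 of the 33 genes, or 39.4%, compared with 8.09% of all 27025 genes in that table. With a T before them or an A after them on the same strand (TCACGTG on either strand, a subset of the first search) they were present in 12 genes, or 36.4%, compared with 4.29% of all genes. The 40 genes were listed as lysosomal hydrolase, membrane and TFEB-pathway genes, so these shares describe the chosen list and are not a test. The matches describe the letters and are not measured binding sites. The 120 bases before the start site are shown 5′ to 3′ for Lamp1, Ctsd and Mcoln1, the cation channel of the lysosomal membrane, which carry the letters (in capitals), and for Lamp2, Tpp1 and Neu1, which had the 3 smallest p-values in HFDmetf vs. CDmetf and do not carry them in this window. Lamp1 had 4 copies, which began 61, 45, 28 and 15 bases before the start site.
Lamp1 (chr8:13159041-13159160, plus strand): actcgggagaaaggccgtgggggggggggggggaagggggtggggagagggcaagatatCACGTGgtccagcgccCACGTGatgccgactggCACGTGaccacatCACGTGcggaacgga
Ctsd (chr7:142387828-142387947, minus strand): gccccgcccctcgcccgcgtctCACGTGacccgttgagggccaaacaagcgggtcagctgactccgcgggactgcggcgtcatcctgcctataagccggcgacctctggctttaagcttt
Mcoln1 (chr8:3500399-3500518, plus strand): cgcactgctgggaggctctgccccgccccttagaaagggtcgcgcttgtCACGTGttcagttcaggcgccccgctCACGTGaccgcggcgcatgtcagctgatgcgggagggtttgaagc
Lamp2 (chrX:38456461-38456580, minus strand): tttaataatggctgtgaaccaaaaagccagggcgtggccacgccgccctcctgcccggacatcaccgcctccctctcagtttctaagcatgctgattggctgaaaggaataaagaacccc
Tpp1 (chr7:105752236-105752355, minus strand): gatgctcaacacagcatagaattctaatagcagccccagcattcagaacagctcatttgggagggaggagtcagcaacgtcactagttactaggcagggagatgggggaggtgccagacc
Neu1 (chr17:34931133-34931252, plus strand): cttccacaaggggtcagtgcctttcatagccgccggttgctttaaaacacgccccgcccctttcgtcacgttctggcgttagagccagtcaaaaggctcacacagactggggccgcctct

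The libraries held 1829690 to 40606442 reads on genes. In CD M3 the 10 most abundant genes took 85.4% of the reads, against 9.22 to 36.6% in the other 23 libraries, and its values were read with and without it. HFDmetf F2 had the lowest total and the highest share of unmapped reads, 46.9%. Depth went with the replicate number. Of the 10 deep libraries, with 9261065 reads or more where the other 14 held at most 5186123, 4 had number 1, 6 had number 3 and 0 had number 2. Reads of Xist and of Y-linked genes went against the sex label in HFD M2 and HFD F2, 2 libraries of the same group. Comparisons between groups therefore use the labelled groups. The count, the median and the first genes of the comparison of sexes are also given without both. Pairs and sets of libraries were matched by the labelled sex, so those with HFD M2 or HFD F2 may join libraries of unlike sex. In the comparison of sexes, the pair of these 2 libraries may run from female to male. The distal enterocyte markers Fabp6, Slc10a2, Slc51a and Slc51b were found in every library, with a summed level from 157 to 4664 CPM. Replicates are separate animals.

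As a summary, each gene's log2 CPM was standardised over the 24 libraries and averaged over the 40 genes. This lysosome score was 0.34 ± 0.33 (SD, n = 6) in CDmetf, -0.12 ± 0.56 in CD, -0.14 ± 0.28 in HFD and -0.08 ± 0.51 in HFDmetf. CDmetf had the highest mean, but its range of -0.12 to 0.81 overlapped those of the other 3 groups, which reached 0.60 in CD, 0.25 in HFD and 0.56 in HFDmetf. The lowest score was that of CD M3, -0.97, followed by HFDmetf F2, -0.70. The score was 0.19 ± 0.51 (SD, n = 8) in libraries of number 2, 0.04 ± 0.43 in number 1 and -0.23 ± 0.35 in number 3. Without CD M3, the difference in score between CDmetf and CD went from 0.47 to 0.29.

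**Figure D1:**
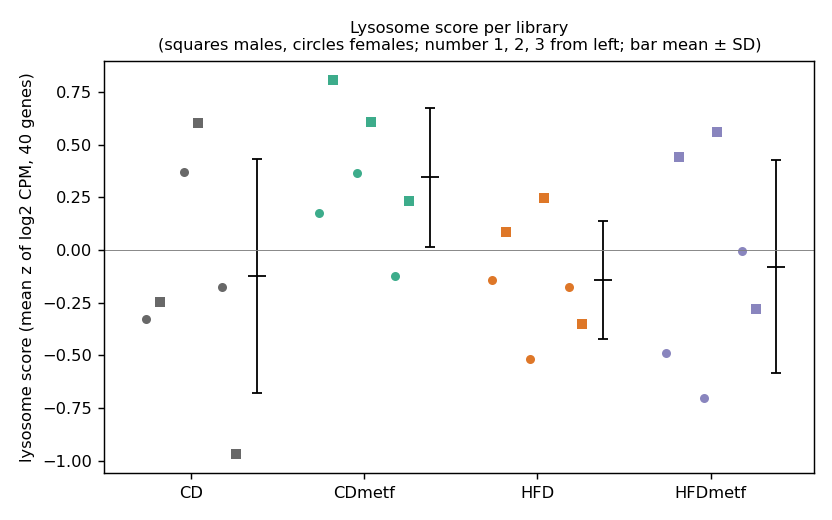
Lysosome score of each library (y axis, mean z-score of log2 CPM over 40 genes) in the 4 groups (x axis), with squares for males, circles for females, replicate numbers 1 to 3 from left to right and bars for the mean ± SD. CDmetf has the highest mean, 0.34, and all groups overlap, with CD M3 lowest at -0.97.

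In every comparison of groups, 0 of the 40 genes passed FDR < 0.05 by edgeR's quasi-likelihood test (Benjamini-Hochberg over 14076 genes), and across all genes tested 0% were called in each of the 4 comparisons of groups and in the diet by metformin interaction. The lowest FDR of any of the 40 in these comparisons was 0.58. With limma-voom and DESeq2 the count of lysosome genes was also 0 in each comparison, while over all genes limma-voom called 0 and DESeq2 called 13 in HFD vs. CD, 3 in HFDmetf vs. CDmetf, 0 in HFDmetf vs. HFD, 4 in CDmetf vs. CD and 4 in the interaction. The paper used limma-voom with sex and block and reported genes at FDR < 0.05 in all 4 comparisons of groups. For HFDmetf vs. CDmetf it listed a lysosome pathway as enriched, with Lamp1, Lamp2, Neu1 and Tpp1 among its genes. Why the calls differ from those here was not tested. No lysosome gene had its 6 values in 1 group entirely above or below the 6 of the other, and among all genes tested the groups did not overlap for 0.0853% in HFD vs. CD, 0.142% in HFDmetf vs. CDmetf, 0.0355% in HFDmetf vs. HFD and 0.149% in CDmetf vs. CD. What follows describes the size of the differences and the genes with the smallest unadjusted p-values, none of which is a call. In bulk tissue, fewer cells of a type and less RNA per cell cannot be told apart.

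**Figure D2:**
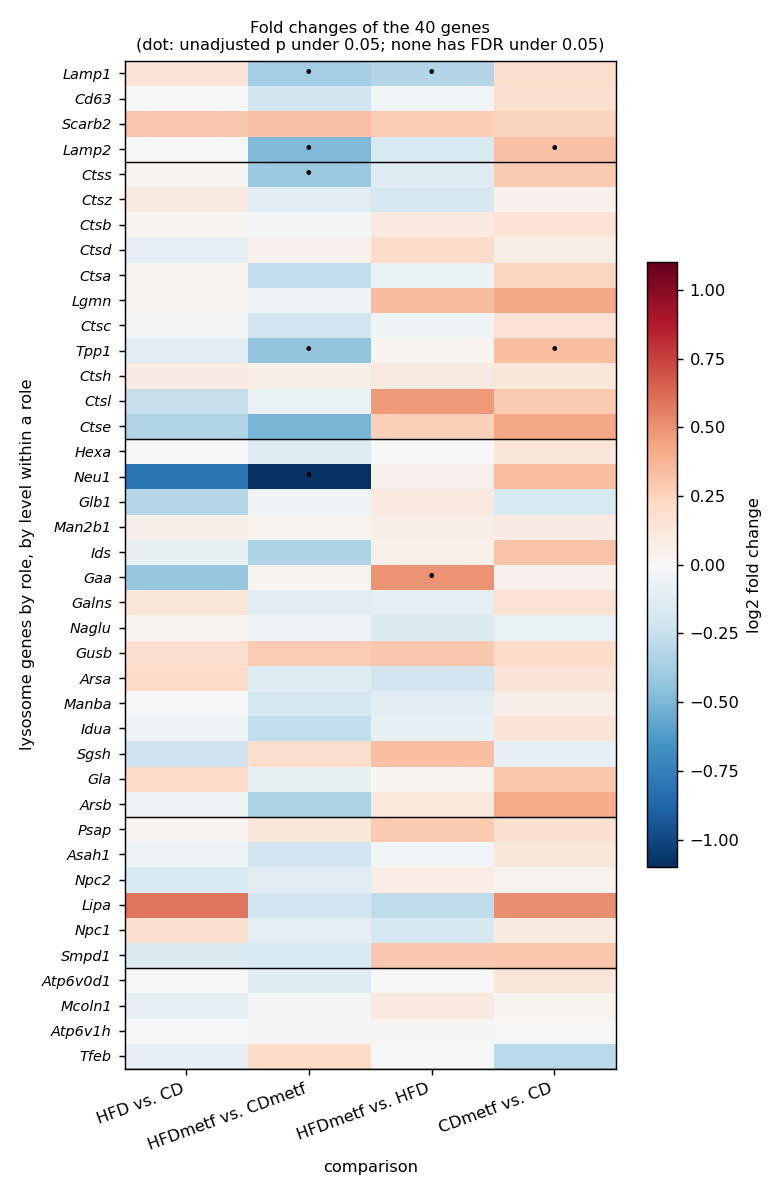
Log2 fold changes (colour) of the 40 lysosome genes (rows, by role and, within a role, by RPKM) in the 4 comparisons (columns), with a dot where the unadjusted p was under 0.05. The dots lie on 5 genes in HFDmetf vs. CDmetf, all lower, on 2 in CDmetf vs. CD, both higher, and on 2 in HFDmetf vs. HFD, and none has FDR under 0.05.

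Between the diets under metformin (HFDmetf vs. CDmetf), most lysosome genes had a lower mean on the high-fat diet, by amounts that did not pass the test. Of the 40 genes, 30 had a log2 fold change below 0 and the median was -0.13, compared with 6300 of 14076 genes and a median of 0.03 over all genes tested. At an unadjusted p under 0.05, 5 were lower and 0 higher, where the same rule took 4.04% of all genes as lower and 3.83% as higher. The 5 were Lamp2 and Lamp1 of the membrane, the proteases Tpp1 and Ctss, and the sialidase Neu1. By role, 3 of 4 membrane genes, 9 of 11 proteases, 11 of 15 glycosidases and sulfatases, 5 of 6 lipid genes and 2 of 4 genes of the channel, acidification and regulation were below 0. The count of 5 became 3 without CDmetf M1 or without HFDmetf F1, and the count of 0 higher became 2 without CDmetf F1 or without HFDmetf M3 and 1 without HFDmetf M1. Without HFDmetf F2 the median was -0.07 and 29 of 40 genes were below 0.

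Lamp2 (chrX:38401357-38456454), the membrane protein needed for fusion of autophagosomes with lysosomes and for chaperone-mediated autophagy, had the smallest p. Its lowest, median and highest levels were 154, 192 and 234 CPM in CDmetf and 88.1, 132 and 208 CPM in HFDmetf. In CD they were 108, 152 and 194 CPM, and in HFD 111, 149.7 and 208 CPM. HFDmetf was thus the lowest group by its median and CDmetf the highest, with overlap between both. The logFC of HFDmetf vs. CDmetf was -0.49 (SE 0.13, FDR = 0.58), and Lamp2 was lower in 6 of 6 pairs of libraries matched by sex and number. The difference was -0.73 in number 1, -0.56 in number 2 and -0.23 in number 3 (mean log2 CPM). It was -0.68 among the deep and -0.42 among the shallow libraries, by means not adjusted for number or sex. The deep libraries were HFDmetf F1 and F3 against CDmetf M3 and F3, so this split also mixes depth with number and sex. With DESeq2 the FDR was 0.0998.

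Tpp1 (chr7:105744811-105752235), a serine protease that removes tripeptides from the ends of proteins, had a similar difference. The lowest, median and highest values were 58.8, 81.6 and 99.7 CPM in CDmetf and 49.8, 57.5 and 68.4 CPM in HFDmetf. Those of CD were 48.3, 62.2 and 81.1 CPM and those of HFD 49.4, 55.1 and 79.3 CPM. In CDmetf, 4 libraries stood above every HFDmetf library, and CDmetf F1 and F3 fell within the HFDmetf range. The logFC was -0.44 (SE 0.12, FDR = 0.58), lower in 6 of 6 pairs.

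Neu1 (chr17:34931253-34935953), which removes sialic acid from glycoproteins, showed the largest difference of the 40. It ranged from 56.9 to 315 CPM with a median of 209 CPM in CDmetf, and from 41.5 to 118 CPM with a median of 62.2 CPM in HFDmetf. In CD it ranged from 54.3 to 320.1 CPM with a median of 101.4 CPM, and in HFD from 28.2 to 162 CPM with a median of 71.7 CPM. The values of both control-diet groups fell apart into high libraries, from 208 to 320.1 CPM, and low ones, from 54.3 to 106 CPM. The logFC of HFDmetf vs. CDmetf was -1.09 (SE 0.40, FDR = 0.60), lower in 5 of 6 pairs.

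Lamp1 (chr8:13159161-13175338) was nearly level in CDmetf, at 431 to 475 CPM with a median of 448 CPM. In HFDmetf it ran from 253 to 474 CPM with a median of 333 CPM, and HFDmetf M3 and F3 stood at 426 and 474 CPM while the other 4 stood at 369 CPM or less. The CD values ran from 288 to 443 CPM with a median of 417 CPM, and the HFD values from 370.4 to 480.2 CPM with a median of 452 CPM. The logFC of HFDmetf vs. CDmetf was -0.37 (SE 0.15, FDR = 0.60). The mean difference was -0.68 and -0.52 in numbers 1 and 2 and 0.00 in number 3. Ctss, the cysteine protease of antigen-presenting cells (chr3:95526786-95556403), had medians of 149.7 CPM in CDmetf and 111 CPM in HFDmetf, with a logFC of -0.40 (SE 0.18, FDR = 0.63) and lower values in 6 of 6 pairs.

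**Figure D3:**
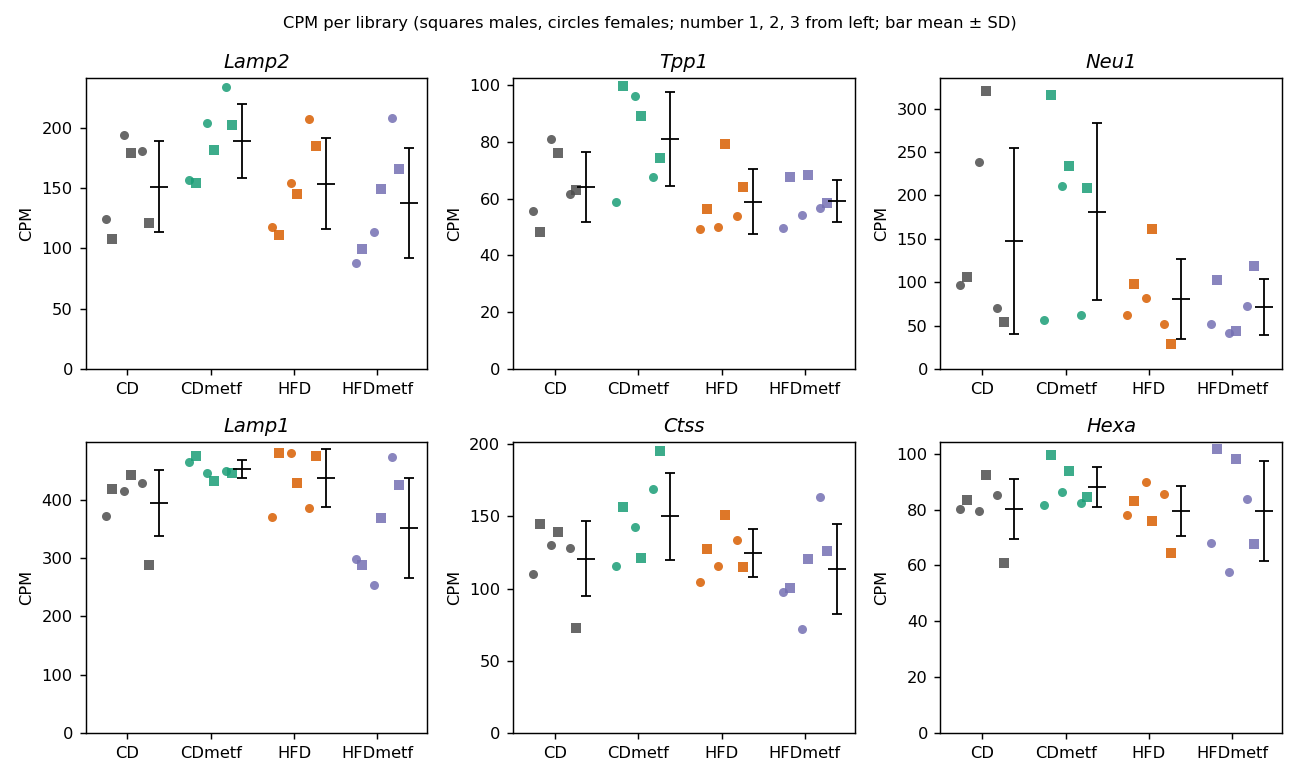
CPM of Lamp2, Tpp1, Neu1, Lamp1, Ctss and Hexa in each library (y axis, from 0) by group (x axis), with squares for males, circles for females, numbers 1 to 3 from left to right and bars for the mean ± SD. For Lamp2 the means are 189 in CDmetf and 138 in HFDmetf and the ranges overlap, and for Hexa the 4 means lie between 79.4 and 88.1.

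Markers of other cell types also differed in this comparison, in both directions. All 10 B-cell markers had a logFC below 0 with a median of -2.48, and their summed level ran from 12.3 to 426 CPM in CDmetf and from 8.98 to 30.2 CPM in HFDmetf. All 5 T-cell markers tested were below 0 as well, with a median of -1.24 and a summed level of 10.8 to 89.4 CPM in CDmetf and 12.6 to 29.0 CPM in HFDmetf. The 4 distal enterocyte markers were all below 0 with a median of -0.55, and their sum ran from 365 to 3796 CPM in CDmetf and from 445 to 2429 CPM in HFDmetf. Of 12 macrophage markers tested, 5 were below 0 with a median of 0.16, and the sum ran from 318 to 491 CPM in CDmetf and from 353 to 515 CPM in HFDmetf. Every marker of these 4 lists had reads in at least 1 library. All 5 exocrine pancreas markers tested were above 0 with a median of 2.42, as were 4 of 5 adipocyte markers with a median of 0.82, 5 of 7 smooth muscle markers with a median of 0.05 and 5 of 7 Paneth cell markers with a median of 0.05. The summed level of all 11 exocrine pancreas markers had medians of 60.4 CPM in CDmetf and 80.9 CPM in HFDmetf. That of the 5 adipocyte markers had medians of 48.5 and 112 CPM. Below 0 were also 8 of 10 enterocyte markers with a median of -0.13, 6 of 7 goblet cell markers with -0.16 and 4 of 4 plasma cell markers with -0.19. The enterocyte sum ran from 16160 to 36410 CPM in CDmetf and from 6696 to 36280 CPM in HFDmetf. The part of these cells in the lower lysosome genes was not tested.

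Without metformin (HFD vs. CD), the set had no common direction. Of the 40 genes, 20 were above and 20 below 0 with a median of 0.00, where 6875 of all 14076 genes tested were above 0. At an unadjusted p under 0.05 there were 0 genes in either direction, where that rule took 2.59% of all genes as higher and 2.04% as lower. The smallest p-values belonged to Lipa, the acid lipase that hydrolyses cholesteryl esters and triglycerides, to Neu1 and to Gaa, the acid glucosidase that degrades glycogen. Lipa (chr19:34492318-34527474) ran from 22.2 CPM in CD M3 to 69.1 CPM in CD, and from 41.2 to 147 CPM in HFD. HFD M1, HFD M3 and HFD F1, at 114, 147 and 86.4 CPM, were above every CD library. The logFC was 0.59 (SE 0.29, FDR = 1.00), it was higher in 3 of 6 pairs, and the difference was -0.39 in number 2 and 1.35 in number 3. It was 0.34 without HFD M3, 0.39 without CD M3 and 0.89 without HFD M2 and HFD F2. Neu1 had a logFC of -0.81 (SE 0.40, FDR = 1.00) and was lower in 6 of 6 pairs. Gaa had a logFC of -0.42 (SE 0.22, FDR = 1.00), with medians of 40.5 CPM in CD and 25.6 CPM in HFD, and -0.26 without HFD F2. Glb1, the beta-galactosidase, was at -0.32 (SE 0.17), or -0.18 without HFD M3, and lower in 6 of 6 pairs, and Arsa, a sulfatase, was at 0.21 (SE 0.13) and higher in 6 of 6. The median over the 40 genes was 0.09 among the deep libraries (2 HFD and 4 CD) and -0.20 among the shallow ones (4 HFD and 2 CD), so its sign depended on which libraries were compared. The deep ones were HFD F1 and F3 against CD M1, M3, F1 and F3. The shallow ones were HFD M1, M2, M3 and F2 against CD M2 and F2. The means were not adjusted for sex or number, so depth, sex, number and CD M3 cannot be told apart here. Without CD M3 the median was -0.08 and 26 of 40 genes were below 0. The count of 0 lower became 3 without HFD F3, 2 without CD M1 or HFD M2, and 1 without CD M3, CDmetf F1 or HFDmetf M2, and the count of 0 higher became 2 without HFD F2 and 1 without CD M2, CD F2, HFD M2, HFD F3 or HFDmetf F2. All 5 T-cell markers and all 10 B-cell markers were above 0 here, with medians of 0.67 and 1.77, all 7 smooth muscle markers were below 0 with a median of -0.32, and 4 of 5 exocrine pancreas markers tested and 4 of 5 adipocyte markers were below 0 with medians of -3.07 and -2.61. The summed levels differed less, with medians of 93.7 CPM in CD and 78.3 CPM in HFD for all 11 exocrine pancreas markers. For the adipocyte markers they were 73.1 and 70.4 CPM. Of 12 macrophage markers tested, 1 was below 0 with a median of 0.24, and of 10 enterocyte markers 1 was below 0 with a median of 0.26. The part of these cells was not tested.

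On the control diet (CDmetf vs. CD), most lysosome genes had a higher mean with metformin, again without a call. Of the 40 genes, 36 had a logFC above 0 and the median was 0.15, compared with 6983 of 14076 genes and a median of -0.00 over all genes tested. All 4 membrane genes, all 11 proteases and all 6 lipid genes were above 0, and 12 of 15 glycosidases and sulfatases were. The 4 genes below 0 were Tfeb, Glb1, Sgsh and Naglu. At an unadjusted p under 0.05, 2 genes were higher and 0 lower, where 2.74% of all genes were higher and 2.41% lower. These were Tpp1, with a logFC of 0.33 (SE 0.12, FDR = 0.94), and Lamp2, with a logFC of 0.32 (SE 0.13, FDR = 0.94), each higher in 6 of 6 pairs. Lipa, higher in 6 of 6 pairs, had a logFC of 0.51 (SE 0.28), Lgmn, an asparaginyl protease that activates other proteases, 0.42 (SE 0.20), and Ids, a sulfatase of heparan and dermatan sulfate, 0.31 (SE 0.17). Tfeb had a logFC of -0.29 (SE 0.17) and was lower in 5 of 6 pairs, with medians of 22.2 CPM in CD and 18.1 CPM in CDmetf.

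These higher levels were not the same in all libraries. The median difference over the 40 genes was 0.28 in number 1, -0.02 in number 2 and 0.21 in number 3. It was 0.17 among the deep libraries (2 CDmetf and 4 CD) and -0.01 among the shallow ones (4 CDmetf and 2 CD), with Lamp2 at 0.73 and -0.11 and Lgmn at 0.59 and -0.17. These splits used means not adjusted for number or sex. The deep libraries were CDmetf M3 and F3 against CD M1, M3, F1 and F3. The shallow ones were CDmetf M1, M2, F1 and F2 against CD M2 and F2. Depth and replicate number therefore cannot be told apart in them. Without CD M3 the median was 0.09, 30 of 40 genes were above 0, and the logFC was 0.21 for Lamp2, 0.25 for Lgmn and 0.32 for Lipa. The count of 2 became 4 without CD M2 or CD F2, 1 without CDmetf F1 and 0 without CDmetf M1. All 10 B-cell markers were above 0 in this comparison, with a median logFC of 2.19 and a sum of 7.87 to 76.6 CPM in CD, and 11 of 12 macrophage markers were above 0, with a median of 0.38 and a sum of 239.6 to 419 CPM in CD. The 5 T-cell markers tested were all above 0 with a median of 0.95, and the 5 exocrine pancreas and 5 adipocyte markers tested were all below 0 with medians of -2.18 and -1.85. The summed level of all 11 exocrine pancreas markers had medians of 93.7 CPM in CD and 60.4 CPM in CDmetf, and that of the adipocyte markers 73.1 and 48.5 CPM. The part of these cells in the lysosome values was not tested.

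On the high-fat diet (HFDmetf vs. HFD), the set had no common direction. Of the 40 genes, 23 were above and 17 below 0, with a median of 0.02. Over all genes tested, 7587 of 14076 were above 0 and the median was 0.03. At an unadjusted p under 0.05, 1 gene was higher and 1 lower, where 3.79% of all genes were higher and 2.82% lower. Gaa (chr11:119267887-119285454) was the higher gene. It ran from 14.99 to 46.4 CPM in HFD with a median of 25.6 CPM, and from 22.4 to 64.6 CPM in HFDmetf with a median of 41.5 CPM, with a logFC of 0.49 (SE 0.22, FDR = 0.64). The difference was 0.87 among the shallow libraries and -0.03 among the deep ones. In both groups the deep libraries were F1 and F3, all labelled female, and the shallow ones were M1, M2, M3 and F2. Depth therefore cannot be told apart from sex and number in this split, for Gaa or for other genes. Lamp1 was the lower gene, with a logFC of -0.32 (SE 0.15, FDR = 0.64), lower in 5 of 6 pairs and with differences of -0.51 among the shallow and -0.01 among the deep libraries. The cysteine proteases Ctsl and Lgmn and the saposin precursor Psap had logFC values of 0.47 (SE 0.27), 0.35 (SE 0.20) and 0.29 (SE 0.17), each higher in 5 of 6 pairs. Ctsl was 0.24 without HFDmetf M1, 0.29 without HFD M2 and 0.14 without both HFD M2 and HFD F2, Lgmn was 0.13 without both, Psap was 0.17 without HFD F2 and 0.18 without HFDmetf M1, and Gaa was 0.32 without HFD F2. The smooth muscle markers were above 0 for 7 of 7, with a median of 0.43 and a sum of 1728 to 2836 CPM in HFD and 1734 to 3920 CPM in HFDmetf, and all 10 enterocyte and all 10 B-cell markers were below 0, with medians of -0.69 and -2.23. Of 12 macrophage markers tested, 2 were below 0 and the median was 0.34. Their sum ran from 246 to 448 CPM in HFD and from 353 to 515 CPM in HFDmetf. The 5 T-cell markers tested were below 0 with a median of -0.95. Above 0 were 4 of 5 exocrine pancreas markers tested, with a median of 3.12, and 5 of 5 adipocyte markers, with a median of 1.44. The summed level of all 11 exocrine pancreas markers had medians of 78.3 CPM in HFD and 80.9 CPM in HFDmetf, and that of the adipocyte markers 70.4 and 112 CPM. The part of these cells was not tested. The count of 1 higher gene became 6 without HFD F3, 3 without HFDmetf M3, 2 without HFD F1 and 0 without HFD M1, HFD M3, HFD F2, HFDmetf M1 or HFDmetf F2. The count of 1 lower gene became 2 without HFDmetf M2 or HFDmetf M3 and 0 without HFD M1, HFD M3, HFD F2, HFDmetf M1, HFDmetf F1 or HFDmetf F2.

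The diet by metformin interaction asks whether metformin acted differently on the 2 diets, as the logFC on the high-fat diet less that on the control diet. Of the 40 genes, 28 were below 0 with a median of -0.15, against 6470 of 14076 and a median of 0.03 over all genes tested. At an unadjusted p under 0.05, 2 were lower and 0 higher, where 2.99% of all genes were lower and 3.04% higher. Both were the LAMP proteins, Lamp1 at -0.52 (SE 0.21, FDR = 0.80) and Lamp2 at -0.49 (SE 0.18, FDR = 0.80). Lipa was at -0.80 (SE 0.40), Arsa at -0.35 (SE 0.19), and Tpp1 at -0.31 (SE 0.17). For Tpp1, values were below 0 in 6 of 6 sets of libraries of the same labelled sex and number. The count of 2 became 5 without CDmetf M3 and 4 without HFDmetf F3. The median was -0.07 without HFD F3, -0.09 without HFDmetf F2, -0.10 without CD M3 and -0.23 with no filter on low counts. All 10 B-cell and 5 T-cell markers had an interaction below 0, with medians of -4.44 and -1.91, and 4 of 5 exocrine pancreas and 5 of 5 adipocyte markers one above 0, with medians of 5.50 and 3.57. Their part was not tested.

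Between males and females, by their labels, 31 of 40 genes were higher in males with a median logFC of 0.10. Over all genes tested, 7578 of 14076 were higher and the median was 0.02. No lysosome gene passed FDR < 0.05, and 0.0071% of all genes did. At an unadjusted p under 0.05, 9 were higher in males and 0 lower, where 4.62% of all genes were higher and 2.64% lower. They were the proteases Ctsd, Ctsl, Lgmn, Ctsb and Tpp1, the glycosidases Neu1 and Naglu, Smpd1, the acid sphingomyelinase, and Tfeb. Ctsd (chr7:142375911-142388038) ran from 64.3 to 172 CPM in males and from 66.8 to 124 CPM in females, with a logFC of 0.29 (SE 0.11, FDR = 0.61). Ctsl had a logFC of 0.48 (SE 0.19, FDR = 0.62), Lgmn 0.37 (SE 0.14, FDR = 0.61) and higher in 11 of 12 pairs, Tfeb 0.32 (SE 0.12, FDR = 0.61) and Ctsb 0.21 (SE 0.09, FDR = 0.62). The median difference over the 40 genes was 0.16 in number 1, 0.20 in number 2, which holds both HFD M2 and HFD F2, and -0.12 in number 3. The 7 smooth muscle, 4 distal enterocyte and 5 adipocyte markers were all above 0 in males as well, with medians of 0.25, 0.41 and 2.17. Of 12 macrophage markers, 3 were below 0 and the median was 0.19. All 10 B-cell, 10 enterocyte and 7 Paneth cell markers were below 0, with medians of -0.90, -0.14 and -0.27. So were 4 of 5 T-cell markers, with a median of -0.39. The part of these cells in the sex differences was not tested. Without HFD M2 and HFD F2, 5 lysosome genes were higher at that p, as were 552 of 15044 genes tested, 30 of 40 were above 0 and the median was 0.07. The logFC was then 0.27 for Ctsd, 0.48 for Ctsl, 0.36 for Lgmn, 0.30 for Tfeb and 0.21 for Ctsb. With all libraries, the median was 0.05 with no filter on low counts and 0.06 without HFDmetf M1. The count was 4 without CDmetf M1 and 5 without HFD M3 or HFDmetf F2.

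The replicate number entered the fit as the block, although the labels do not say that it is one, and it went with depth in these libraries. It was the term with calls among the 40 genes. By the F test over the 3 numbers, 9 of the 40 lysosome genes passed FDR < 0.05, or 22.5%, where the same test called 16.6% of all genes. They moved in both directions. Lamp2, Ctsc, a dipeptidyl peptidase that activates serine proteases, Asah1, the acid ceramidase, and Atp6v1h, a subunit of the V-ATPase, were higher in number 3 than in number 1. Tfeb, Ctsd, Arsa, Galns, a sulfatase of keratan sulfate, and Idua, which removes iduronic acid from glycosaminoglycans, were lower in number 3.

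Lamp2 was 120 ± 24.5 CPM (SD, n = 8) in number 1, 165 ± 29.9 CPM in number 2 and 188 ± 34.2 CPM in number 3, with FDR = 0.0022. Ctsc was 75.5 ± 9.38, 105 ± 14.6 and 107 ± 19.2 CPM, with FDR = 0.0093. In the opposite direction, Tfeb was 25.9 ± 6.25, 20.5 ± 2.85 and 16.7 ± 4.80 CPM, with FDR = 0.011. Ctsd was 123 ± 28.6, 101 ± 25.4 and 80.9 ± 10.2 CPM, with FDR = 0.016. Asah1 was 62.8 ± 8.45, 84.96 ± 10.2 and 87.0 ± 20.5 CPM, with FDR = 0.026. Of the 9 genes, Idua had its highest mean in number 2, at 16.1 CPM, and Atp6v1h its lowest, at 35.4 CPM, while the other 7 had number 2 in between. Galns had FDR = 0.028, Arsa 0.039, Idua 0.040 and Atp6v1h 0.041. Total reads on genes were 2977391 to 40606442 in number 1, 1829690 to 3466430 in number 2 and 2296520 to 40384234 in number 3, and the shares of unmapped reads were 7.58 to 26%, 21.7 to 46.9% and 12.4 to 38.1%. The median sum of the distal enterocyte markers was 885, 2608 and 1235 CPM in numbers 1, 2 and 3, and that of the macrophage markers 429, 378 and 343 CPM. The part of depth, unmapped reads and cell types in these differences was not tested. The count of 9 became 4 or 5 without any 1 of CD F1, CD F3, CDmetf M3, HFD F1, HFD F3, HFDmetf F1 and HFDmetf F3, and 10 without CD M3.

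**Figure D4:**
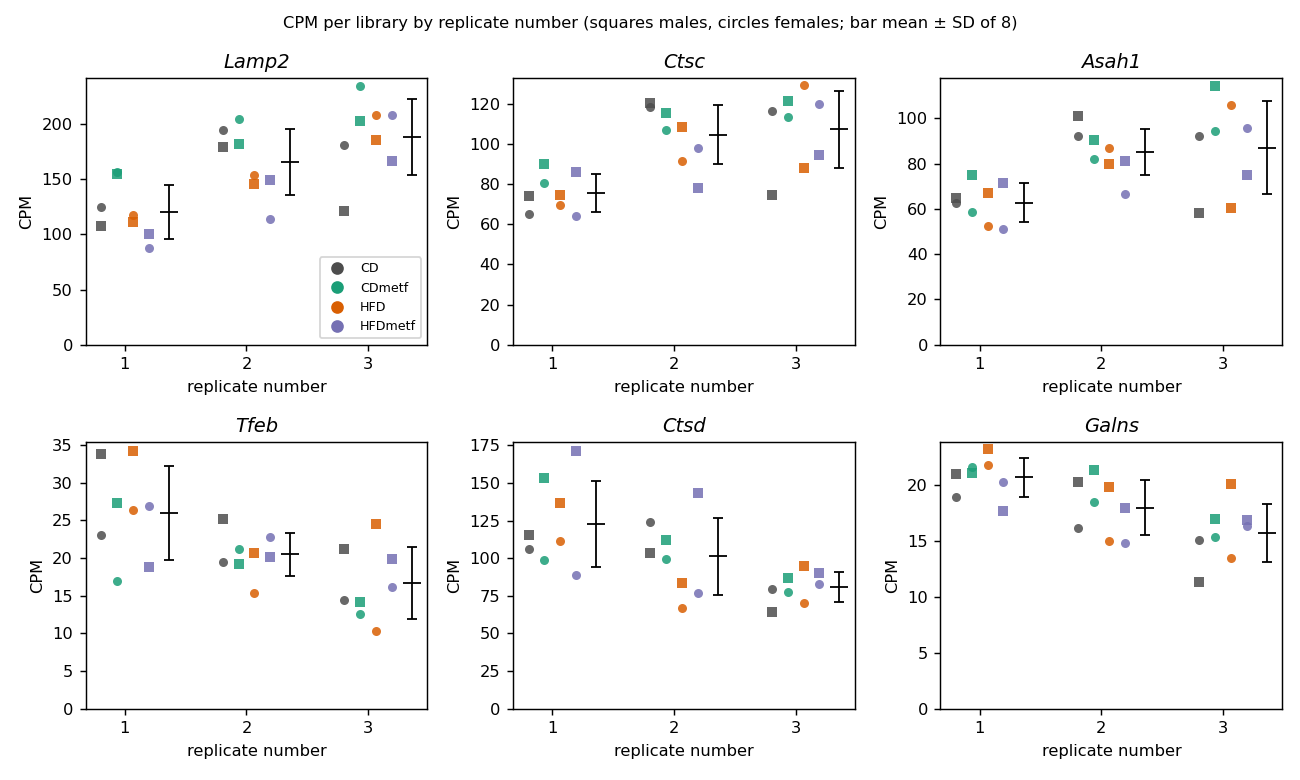
CPM of Lamp2, Ctsc, Asah1, Tfeb, Ctsd and Galns in each library (y axis, from 0) by replicate number (x axis), coloured by group, with squares for males, circles for females and bars for the mean ± SD of 8 libraries. Lamp2 has means of 120, 165 and 188 in numbers 1, 2 and 3, and Tfeb runs the other way with means of 25.9, 20.5 and 16.7.

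The 40 genes also differed in how much they varied. The SD of log2 CPM over the 24 libraries had a median of 0.33, compared with 0.41 over all genes tested. It was smallest for Ctsb, Man2b1, an alpha-mannosidase, and Hexa, each at 0.21 to 0.22. Hexa (chr9:59539540-59565109) had group means of 80.2 ± 10.6 CPM (SD, n = 6) in CD, 88.1 ± 7.16 in CDmetf, 79.5 ± 8.88 in HFD and 79.4 ± 17.98 in HFDmetf. The spread was largest for Ctse, at 1.16, Neu1, at 0.99, and Lipa, at 0.59. Neu1 spanned 11.4-fold between its lowest and highest library and Lipa 6.61-fold. Ctse had 87 reads at most.

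Each of the 40 genes was compared with the summed CPM of 4 marker lists across the 24 libraries, a choice made after the values were seen (160 relations, Pearson's r and Spearman's rho on log2 values, 100000 permutations each, Benjamini-Hochberg over the 160). The libraries share groups, sexes and numbers, so these are not 24 libraries of 1 condition. With the distal enterocyte markers, 7 genes had a positive and 1 a negative r at an adjusted p under 0.05. Ids had r = 0.78 (adjusted permutation p = 8e-04) and rho = 0.79 (adjusted permutation p = 0.0016), with r = 0.70 without the 2 libraries farthest from the median. Neu1 had r = 0.76 (adjusted permutation p = 0.0013) and rho = 0.76 (adjusted permutation p = 0.0016), with r = 0.80 without the 2 farthest. The relation of Neu1 held in each number, with r of 0.70, 0.85 and 0.84, and for Ids r was 0.86, 0.48 and 0.88. Among the deep libraries r was 0.33 for Neu1 and 0.89 for Ids.

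With the smooth muscle markers, 9 genes had a positive and 2 a negative r by the same rule. Gaa had r = 0.74 (adjusted permutation p = 0.0014) and rho = 0.73 (adjusted permutation p = 0.0035), with 0.74 without the 2 farthest and 0.73, 0.79 and 0.84 in numbers 1, 2 and 3. With the macrophage markers, 8 genes had a positive and 0 a negative r. Man2b1 had r = 0.74 (adjusted permutation p = 0.0013) and rho = 0.69 (adjusted permutation p = 0.0059), with 0.62 without the 2 farthest and 0.41, 0.89 and 0.60 within the numbers. Ctsd had r = 0.70 (adjusted permutation p = 0.0018) and rho = 0.64 (adjusted permutation p = 0.011), with 0.59 without the 2 farthest and 0.50, 0.59 and 0.84 within the numbers. With the absorptive enterocyte markers, 5 genes had a positive and 8 a negative r. Npc1, which exports cholesterol from lysosomes, had r = 0.73 (adjusted permutation p = 0.0011) and rho = 0.76 (adjusted permutation p = 0.0019), with 0.76 without the 2 farthest and 0.67, 0.70 and 0.81 within the numbers. Sgsh, a sulfatase of heparan sulfate, had r = -0.75 (adjusted permutation p = 8e-04) and rho = -0.66 (adjusted permutation p = 0.0073), with -0.67 without the 2 farthest and -0.67, -0.82 and -0.63 within the numbers. The permutations can give no unadjusted p below 1e-05.

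**Figure D5:**
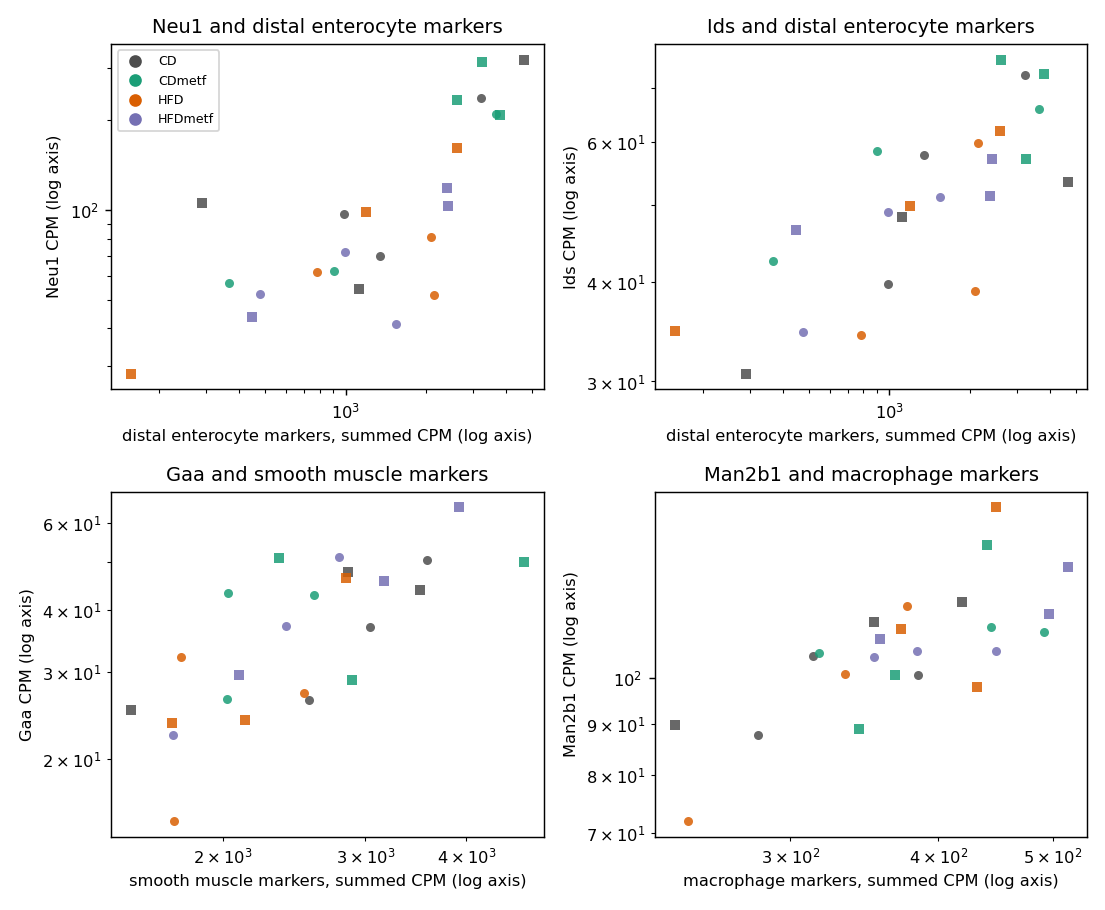
CPM of 4 lysosome genes (y axes, log scale) against the summed CPM of cell type markers (x axes, log scale) in the 24 libraries, coloured by group, with squares for males and circles for females. Neu1 and Ids are higher where the distal enterocyte markers are higher (r = 0.76 and 0.78), Gaa where the smooth muscle markers are (r = 0.74) and Man2b1 where the macrophage markers are (r = 0.74).

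A wider list of 111 further tested genes, of other hydrolases, transporters, sorting receptors, V-ATPase subunits, TFEB and mTORC1 regulation and autophagy, also had 0 genes at FDR < 0.05 in the comparisons of groups. In HFDmetf vs. CDmetf, 15 were lower and 5 higher at an unadjusted p under 0.05, where the rule took 4.04% and 3.83% of all genes, and 72 of 111 were below 0 with a median of -0.08. The lower genes included 6 of 27 other hydrolases and cofactors. The smallest p-values were those of Cd164, a sialomucin of lysosomes and endosomes, with a logFC of -0.74 (SE 0.18, FDR = 0.58), of Tcirg1, a V-ATPase subunit, at 0.52 (SE 0.14, FDR = 0.58), and of Smpdl3a, a phosphodiesterase, at -0.58 (SE 0.18, FDR = 0.58). In CDmetf vs. CD, 5 were higher and 1 lower (2.74% and 2.41% of all genes) and 74 of 111 were above 0, led by Napsa, an aspartic protease, at 1.79 (SE 0.60, FDR = 0.94), Cd164 at 0.51 (SE 0.18) and Prcp, a carboxypeptidase, at 0.36 (SE 0.13). By that rule 2 genes stood higher and 0 lower in HFD vs. CD (2.59% and 2.04% of all genes), Napsa at 1.79 (SE 0.61, FDR = 1.00) and Atg5, of the autophagy conjugation machinery, at 0.32 (SE 0.14), and the next was Uvrag, an autophagy regulator, at 0.25 (SE 0.12). In HFDmetf vs. HFD, 6 were higher and 5 lower (3.79% and 2.82% of all genes), led by Slc11a1, a metal transporter of phagocytes, at 0.68 (SE 0.25, FDR = 0.64), Mitf, a relative of TFEB, at 0.63 (SE 0.25), and Gabarap, a ubiquitin-like autophagy protein, at -0.42 (SE 0.17). In the interaction, 2 were higher and 6 lower (3.04% and 2.99% of all genes), led by Napsa at -3.17 (SE 0.87, FDR = 0.60), Atg7, of the autophagy conjugation machinery, at 0.48 (SE 0.17) and Gabarap at -0.63 (SE 0.23). Napsa was low throughout, at 2.58 ± 2.66, 2.89 ± 3.11 and 1.18 ± 0.80 CPM (SD) in numbers 1, 2 and 3. In the shallowest library, 3 reads were 1.71 CPM, so its fold changes rest on few reads. Between the sexes as labelled, 6 were higher in males and 2 lower (4.62% and 2.64% of all genes), and the smallest p was that of Map1lc3a, the autophagosome protein LC3A, at 0.57 (SE 0.13, FDR = 0.24). For the replicate number, 23 of 111 passed FDR < 0.05, or 20.7%, against 16.6% of all genes, of which 16 were lower and 7 higher in number 3 than in number 1.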

How the data were processed

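RNA-seq was made from the distal small intestine of 24 mice after rRNA depletion with a directional kit and paired-end sequencing. Per the methods of the study, reads were trimmed by the authors in Trimmomatic 0.39, then mapped to GRCm38 with STAR 2.5.3a. The authors deposited raw read counts per gene. The annotation release and the strand setting of the counting are not given in the sources used here, so reads of overlapping genes may be shared. Rows that name no gene (unmapped and unassigned reads) were left out of library sizes. Unmapped reads were 7.58 to 46.9% and reads outside genes 11.8 to 28.2% of each library's table. Columns of other samples in the table numbered 0.

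Counts were normalised by TMM in edgeR 4.0.16 (R 4.3.3), filtered with filterByExpr, which left 14076 genes, and fitted by the quasi-likelihood method on group, sex and replicate number over all 24 libraries. This left 17 residual degrees of freedom. Tests were two-sided with Benjamini-Hochberg FDR over all genes tested and a threshold of 0.05. SE was the log2 fold change divided by the square root of F. CPM, the counts scaled by the TMM library sizes, were used for levels and took a prior count of 1 on the log2 scale, and RPKM used the union exon length of GENCODE M21, which also gave the gene coordinates (GRCm38). Promoters were from RefSeq. The floor of 3 reads covers counting error only, while SE and SD also include differences between animals. With 1829690 to 40606442 reads on genes, 3 reads were 1.71 CPM in the shallowest library, and the 10 libraries with 9261065 reads or more were called deep.

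The 40 genes and all lists were chosen with earlier results of these data known. Genes were named if they were Lamp1, Ctsd or Hexa, among the 5 smallest p-values of a comparison (3 for the wider list), had an FDR under 0.05, had groups that did not overlap, or were among the 3 with the largest or smallest spread. Others named for level, promoter letters, direction, sex or marker relations were chosen after their values were seen. The scripts were tested on simulated data. The tests were repeated with DESeq2 1.42.0, with limma-voom (3.58.1), with no filter on low counts, with RLE normalisation, at least 10 counts in every library, no replicate block, leaving out CD M3, leaving out HFD M2 and HFD F2, and leaving out each library in turn.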

Additional observations from a re-analysis of the deposited data

Results flagged for a closer look

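In 3 of 96 gene and group combinations examined, 1 library stood apart from the other 5 of its group by Dixon's criterion (gap over range, 95% critical value), and chance gives about 1 in 20. Atp6v1h, a V-ATPase subunit, was 51.7 CPM in CD F3, where the other CD libraries held 32.5 to 39.4 CPM. The same gene was 61.4 CPM in HFDmetf F3, where the others held 32.3 to 37.4 CPM. Lipa, the acid lipase, was 99.97 CPM in CDmetf F1, where the others held 64.5 to 70.9 CPM.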

How the results depend on the processing

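In the comparisons of groups and of sexes, 0 of the 40 genes passed FDR < 0.05 under every alternative run, and the lowest FDR was 0.0998, for Lamp2 and Tpp1 in HFDmetf vs. CDmetf by DESeq2. The count for the replicate number, 9, with 16.6% of all genes, was 4 with no filter on low counts (6.33% of all genes), 13 by limma-voom (32%), 12 by DESeq2 (29.2%), 8 with RLE (16.9%), 9 with at least 10 counts in every library (26.4%), 10 without CD M3 (28.3%), 7 without HFD M2 and HFD F2 (13.3%), and 4 to 11 with 1 library left out. The Lamp2 difference in HFD vs. CD, 0.01, was -0.0026 with at least 10 counts in every library and -0.10 without CD M3 (-0.10 to 0.072 with 1 library left out). Neu1 in HFDmetf vs. HFD, 0.05, was -0.13 by limma-voom, -0.013 with no filter, -0.17 with no replicate block and -0.018 without CD M3 (-0.18 to 0.26 with 1 left out). Tpp1 in HFDmetf vs. HFD, 0.02, was -0.0026 by DESeq2, -0.0092 with RLE, -0.033 with no filter, -0.00053 without CD M3 and -0.035 without HFD M2 and HFD F2 (-0.064 to 0.036 with 1 left out). The cause of these changes was not tested. Counts of the 40 genes at an unadjusted p under 0.05 moved by over 1.5 times in 62 cases. Of 1240 recomputed fold changes and medians of at least 0.05 in size, 49 moved by over 1.5 times with the same direction, and those that the report prints are given beside their values. With no replicate block, the medians over the 40 genes were 0.00 in HFD vs. CD, -0.13 in HFDmetf vs. CDmetf, 0.01 in HFDmetf vs. HFD, 0.14 in CDmetf vs. CD, -0.13 for the interaction and 0.11 for males vs. females, with 0 calls, so that it changed no call. The study's methods use the block, but the numbers pair the libraries weakly. Pairs with the same number had a mean correlation of deviations of 0.13 (lowest -0.46, 72 pairs) against -0.06 for 144 pairs with different numbers, and 14 of 24 libraries were closest to one with their own number. The 14 shallow libraries limit the precision of low genes, such as Ctse.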
